A study of Mus musculus with 6 samples.

Results

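Collagens that do not build the large banded fibrils of connective tissue span the cell surface, form beaded filaments around cells, or sit on the outside of fibrils. The genes described here are 10 of these, taken by name from the 43430 gene IDs counted: the transmembrane collagens Col13a1, Col23a1 and Col25a1, the collagen VI chains Col6a1, Col6a2 and Col6a3, the short-chain collagen Col8a1, and Col12a1, Col14a1 and Col16a1, which belong to the FACIT group (fibril-associated collagens with interrupted triple helices). They were measured by RNA-seq in PDGFRA-positive lung fibroblasts, flow-sorted by their alpha receptor for platelet-derived growth factor, from male mice of strain C57BL/6J that were 9 to 11 weeks old. In the hypercapnia group 9 mice breathed 10% CO2 for 10 days, and in the room air group 9 mice of the same strain, sex and age breathed room air. The cells of 3 mice were pooled in each library, which gave 3 libraries per group, called M4, M5 and M6 for hypercapnia and M1, M2 and M3 for room air. The libraries of a group are thus separate pools, and differences between mice within a pool are averaged.

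A collagen is built of chains that wind into a triple helix, and a chain can wind only where glycine recurs in the repeat glycine-X-Y. Transmembrane collagens carry a short tail inside the cell, a single membrane-spanning segment and a long collagenous ectodomain, which proprotein convertases of the furin type can cut free. Collagen VI is assembled inside the cell from different chains, then secreted and joined end to end into beaded microfilaments that surround fibroblasts and bind cells to the matrix. FACIT collagens have short collagenous stretches between long non-collagenous domains and lie on the surface of fibrils of other collagens. In the mouse lung Col13a1 and Col14a1 are widely used as marker genes, Col13a1 for fibroblasts of the alveolar wall and Col14a1 for fibroblasts around airways and vessels.

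The transcripts of the transmembrane collagens Col13a1 and Col23a1 were lower in the hypercapnia group than in the room air group, and no collagen VI or FACIT gene passed the test. By edgeR's quasi-likelihood test, Col13a1 fell to 0.539 of its room air level and Col23a1 to 0.665. Of the 10 genes, 9 passed the filter on low counts, 0 rose, 2 fell and 7 did not pass the threshold of an adjusted p of 0.05. Of all 13005 genes tested, 1.22% passed the same threshold, 0.523% higher and 0.7% lower in hypercapnia. In bulk libraries such as these, fewer cells of a type and less RNA per cell cannot be told apart.

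The libraries held 8999780 to 10198336 counts each, more than the average depth of aligned reads named in the labels, and nothing in the sources used here accounts for the gap. At this depth 3 counts corresponded to 0.281 to 0.354 CPM, read counts scaled to a common library size with TMM factors, the unit used below. The sorted receptor Pdgfra was abundant in every library, at 2530 to 3365 CPM in hypercapnia and 3323 to 3707 CPM in room air. Col1a1, a chain of fibrillar collagen I, ran from 4526 to 5466 CPM in hypercapnia and from 4846 to 5397 CPM in room air. The leukocyte marker Ptprc had 2 counts in M1 and none in the other libraries, and the epithelial marker Epcam reached at most 1.37 CPM in hypercapnia and 2.24 CPM in room air. Other epithelial markers were present in every library: the club cell gene Scgb1a1 at 126.3 to 301.1 CPM in hypercapnia and 275.4 to 489.1 CPM in room air, and the alveolar type 2 gene Sftpc at 67.0 to 189.3 CPM in hypercapnia and 49.0 to 125.2 CPM in room air. Lyz2, listed with the leukocyte markers, stood at 21.3 to 58.7 CPM in hypercapnia and 10.1 to 50.8 CPM in room air. The leukocyte marker Cd68 reached at most 2.73 CPM in hypercapnia and 3.05 CPM in room air. Which cells the Lyz2 counts came from was not tested. M3 stood apart in 18 endothelial marker genes, whose summed level was 692 CPM there against 2163 to 3904 CPM in the other libraries.

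The repeat that makes these genes collagens can be read in their coding sequences. A stretch of 60 bases from the longest run of the repeat is shown for the genes the results turn on, taken from the longest complete coding transcript of GENCODE M21, with each glycine codon in capitals and codons counted from the start codon.
Col13a1, codons 468 to 487: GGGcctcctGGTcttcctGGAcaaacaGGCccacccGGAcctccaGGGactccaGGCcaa
Col23a1, codons 110 to 129: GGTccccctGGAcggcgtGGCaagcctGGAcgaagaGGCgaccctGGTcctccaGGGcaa
Col6a1, codons 256 to 275: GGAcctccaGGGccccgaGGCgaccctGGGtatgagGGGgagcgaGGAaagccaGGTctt
Col6a3, codons 1558 to 1577: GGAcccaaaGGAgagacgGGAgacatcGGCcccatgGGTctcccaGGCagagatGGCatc
Col14a1, codons 1517 to 1536: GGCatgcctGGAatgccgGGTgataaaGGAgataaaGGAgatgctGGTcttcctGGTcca
In each stretch the glycine codons recur without a break in the glycine-X-Y pattern. How much of the chain the repeat takes up differed between the genes. Runs of at least 5 triplets covered 70.6% of the 739 codons of Col13a1, 69.4% of the 532 codons of Col23a1 and 71.6% of the 666 codons of Col25a1. The collagenous share was 32.2% of 1025 codons in Col6a1 and 31.9% of 1034 codons in Col6a2, each with a longest run of 87 triplets. Col6a3, with 2677 codons, had 12.4% in runs. Among the FACIT genes, Col12a1 had 8.22% of 3065 codons and Col14a1 14.02% of 1798 codons in runs, whereas Col16a1 had 63.2% of 1580 codons, spread over 21 separate runs. Col8a1 had 62.1% of 744 codons in runs.

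**Figure D1:**
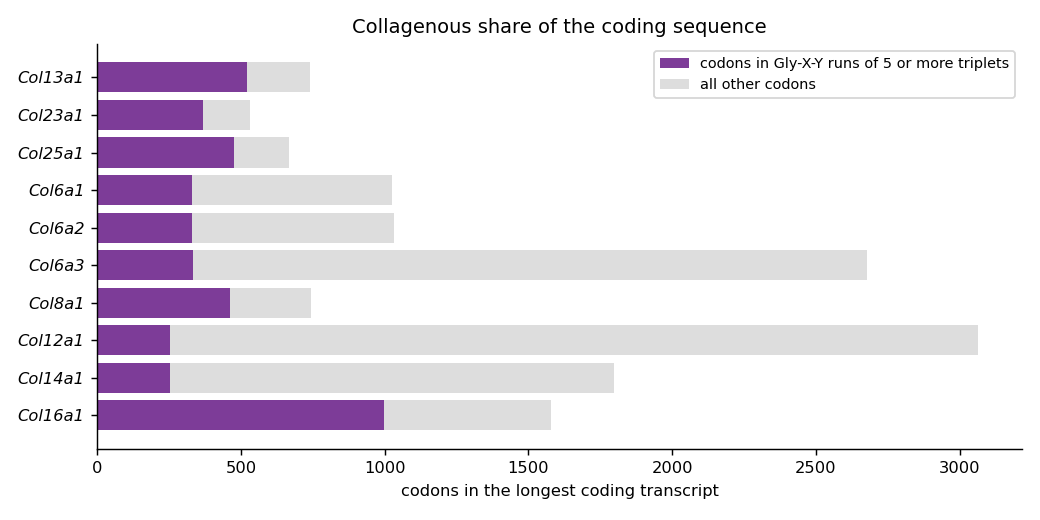
Codons of the longest coding transcript of each gene (horizontal axis), with the codons inside glycine-X-Y runs of at least 5 triplets marked within the bar. The transmembrane genes are short chains that are mostly repeat (69.4% to 71.6%), and Col12a1, the longest chain, is 8.22% repeat.

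Levels of different genes are compared here as CPM per kilobase of the longest coding transcript, and in places also of all annotated exons. Shares of counts or reads given further on, and the ratio of Col14a1 to Col13a1 counts, are not corrected for length and are not levels. By level, the order was led by the collagen VI chains. Col6a1 stood at 558 ± 20.2 CPM per kb in hypercapnia and 609 ± 23.0 in room air (SD, n = 3 each), and Col6a2 at 489 ± 8.26 in hypercapnia and 516 ± 25.9 in room air. Col6a3 followed with 231 ± 27.9 CPM per kb in hypercapnia and 301 ± 21.5 in room air. The Col6a2 value depends on the length used, since all its annotated exons together span 8326 bases and the transcript 3949. Per kilobase of all its exons it was 232 ± 3.92 CPM in hypercapnia and 245 ± 12.3 CPM in room air.

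Below collagen VI, the order of Col13a1, Col14a1, Col23a1 and Col16a1 was not the same in both groups. In hypercapnia Col13a1 stood at 105 ± 7.14 CPM per kb and Col14a1 at 93.2 ± 22.8, and their libraries overlapped. Col23a1 stood at 52.5 ± 4.52 and Col16a1 at 50.05 ± 4.28 CPM per kb in hypercapnia, again with overlapping libraries. This order depends on the length used: per kilobase of all annotated exons in hypercapnia, Col14a1 (85.8 ± 20.996) stood above Col13a1 (72.4 ± 4.90), and Col23a1 (51.7 ± 4.45) lay above Col16a1 (38.6 ± 3.30) with no overlap. In room air the same genes were spread out: Col13a1 at 196 ± 21.1 CPM per kb of transcript, Col23a1 at 78.9 ± 7.55, Col14a1 at 64.6 ± 5.41 and Col16a1 at 46.3 ± 4.57, with no overlap between neighbours in that order. Col12a1 came next, at 13.95 ± 3.37 CPM per kb in hypercapnia and 10.4 ± 0.933 in room air. Col8a1 was low, at 1.89 ± 0.584 CPM per kb in hypercapnia and 2.16 ± 2.16 in room air.

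**Figure D2:**
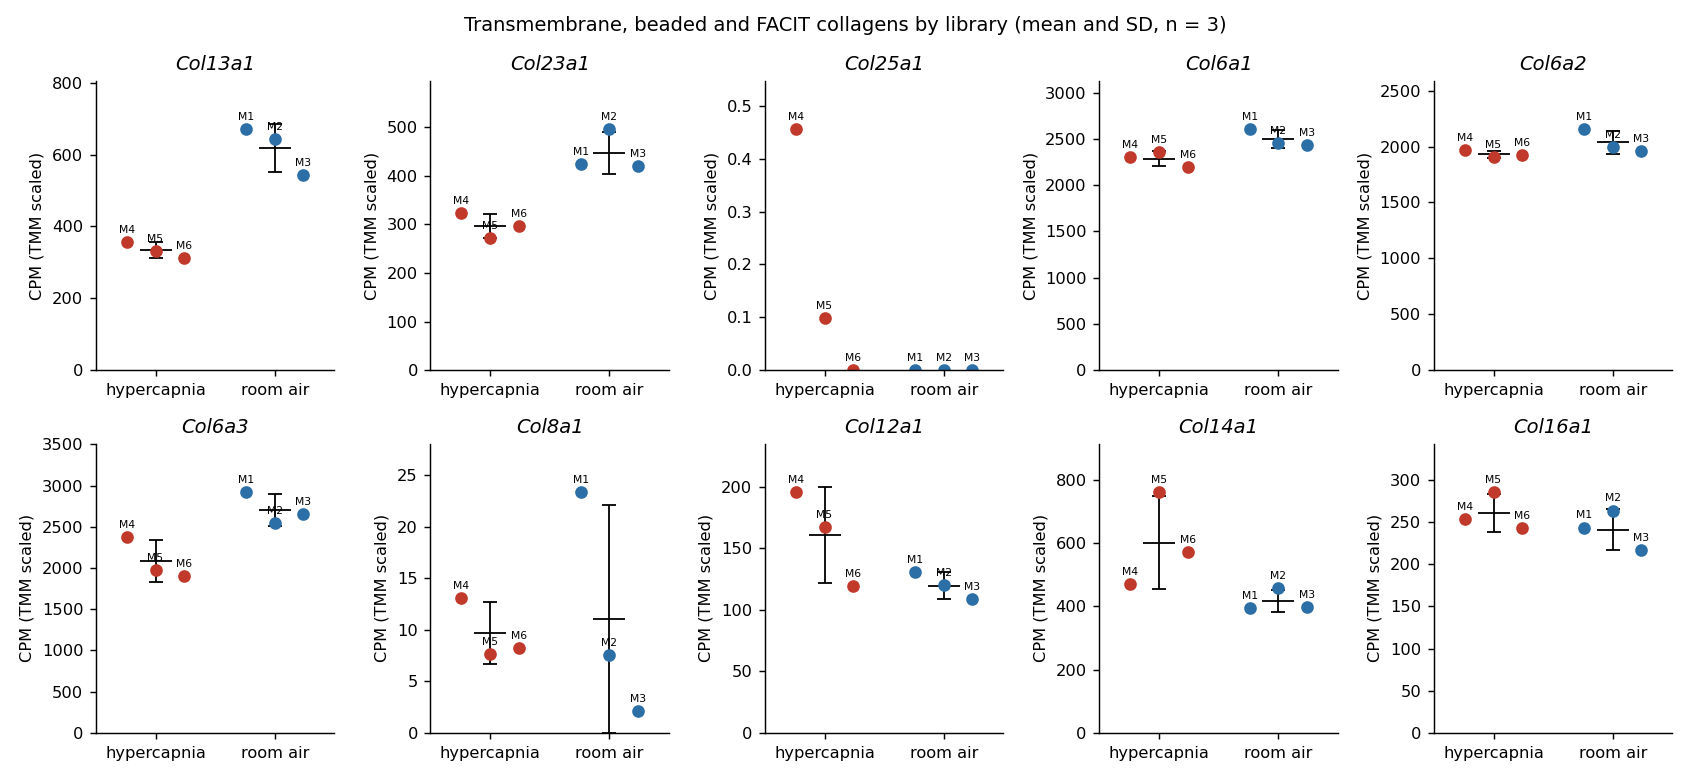
CPM after TMM scaling (vertical axis, from 0, one scale per gene) of the 10 genes in each library, with hypercapnia libraries M4 to M6 left of room air libraries M1 to M3. Points are libraries and bars are mean and SD of 3 libraries, left out for Col25a1. Col13a1 and Col23a1 are lower in all 3 hypercapnia libraries than in any room air library, and Col8a1 is spread most widely within room air.

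The transmembrane gene Col13a1 (ENSMUSG00000058806, chr10:61838236-61979108 of mm10, minus strand) encodes a collagen found at cell-matrix contacts. Col13a1 stood at 356.8, 331.7 and 311.8 CPM in hypercapnia libraries M4, M5 and M6, against 670.4, 641.8 and 543.2 CPM in room air libraries M1, M2 and M3. The groups did not overlap, and the highest hypercapnia library lay well under the lowest room air library. The means were 333 ± 22.6 CPM in hypercapnia and 618 ± 66.7 CPM in room air (SD, n = 3 each). By edgeR's quasi-likelihood test the log2 fold change was -0.89 ± 0.12 (SE), with a 95% interval of -1.15 to -0.63 and an adjusted p of 0.0077. The call was lost without M2 (estimate -0.86, adjusted p 0.0638) and without M5 (estimate -0.89, adjusted p 0.0618). In these fits 24 genes were called without M2 and 27 without M5 over all tested genes, against 159 with all libraries. The estimate ran from -1.08 to -0.83 over all alternatives, and the value of -1.08 came from a fit that took the endothelial marker level as covariate.

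Col23a1 (ENSMUSG00000063564, chr11:51289920-51583918, plus strand) encodes another transmembrane collagen of the same membrane-spanning family. Col23a1 stood at 322.8, 271.8 and 295.7 CPM in hypercapnia libraries M4, M5 and M6, against 424.3, 495.7 and 419.4 CPM in room air libraries M1, M2 and M3. The groups again did not overlap, with M2 highest in room air and M5 lowest in hypercapnia. The means were 297 ± 25.5 CPM in hypercapnia and 446 ± 42.7 CPM in room air. The log2 fold change was -0.59 ± 0.12 (SE), with a 95% interval of -0.85 to -0.33 and an adjusted p of 0.0442 by edgeR's quasi-likelihood test. This adjusted p lay close to the threshold and the call rested on nearly every library. It was kept without M4 (adjusted p 0.0382) and lost without M1 (0.0746), M2 (0.24), M3 (0.0533), M5 (0.213) or M6 (0.143), while the estimate stayed between -0.67 and -0.51.

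Col25a1 (ENSMUSG00000058897, chr3:130131501-130599877, plus strand) encodes the transmembrane collagen first described in brain as the precursor of a component of amyloid plaques. It had 4 counts in M4, 1 count in M5 and 0 counts in M6, against 0 counts in each room air library. The gene was too low to test, and 0 counts over the 28052473 counts of the room air group allow up to 0.107 CPM, by counting error only.

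The genes whose centred log2 CPM followed Col13a1 most closely over the 6 libraries were Tnfrsf19 (root mean square difference 0.0842), Scube2 (0.0964) and Tubb4a (0.104), out of 10438 named genes averaging 5 CPM or more. For Col23a1 the nearest were Chsy3 (0.0555), Sgms1 (0.0584) and Ncald (0.064). This measure is a description over 6 libraries that share the group difference, so any gene with a difference of like size and little spread ranks high.

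The 250 bases before the RefSeq start site are shown for the transmembrane genes, because the pair that fell can be set beside the one that was nearly silent. Sequences are RefSeq's, on GRCm38.p6, read 5′ to 3′ on the gene's strand. Capitals mark matches, on either strand, to the TATA box TATAAA, the E-box CACGTG, the GC box GGGCGG, the CCAAT motif and the AP-1 motif TGACTCA.
Col13a1, chr10:61979109-61979358, minus strand: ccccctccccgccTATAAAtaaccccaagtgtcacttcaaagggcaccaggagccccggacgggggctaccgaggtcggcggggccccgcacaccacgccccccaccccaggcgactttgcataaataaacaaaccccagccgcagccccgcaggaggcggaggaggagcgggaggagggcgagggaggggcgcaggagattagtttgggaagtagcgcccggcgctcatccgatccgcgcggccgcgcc
Col23a1, chr11:51289670-51289919, plus strand: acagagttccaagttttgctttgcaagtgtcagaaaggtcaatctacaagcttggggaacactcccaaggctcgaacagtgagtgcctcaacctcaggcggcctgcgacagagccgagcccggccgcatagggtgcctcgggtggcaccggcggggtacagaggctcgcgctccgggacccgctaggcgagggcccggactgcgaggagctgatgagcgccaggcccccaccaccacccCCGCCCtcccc
Col25a1, chr3:130180595-130180844, plus strand: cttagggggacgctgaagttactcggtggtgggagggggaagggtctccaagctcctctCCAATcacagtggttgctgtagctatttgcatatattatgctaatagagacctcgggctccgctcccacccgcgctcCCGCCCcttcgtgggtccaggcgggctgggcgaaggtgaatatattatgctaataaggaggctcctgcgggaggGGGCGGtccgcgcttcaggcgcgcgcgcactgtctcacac
The Col13a1 and Col23a1 windows lie directly before the gene positions given above. The Col25a1 window lies inside its gene, because the RefSeq start site is downstream of the GENCODE M21 gene start, so the windows are not placed alike. These windows differed in the motifs they held. The Col13a1 window had TATAAA at -237 to -232, far from the start site, and no other match. The Col23a1 window had a GC box at -11 to -6 on the opposite strand. The Col25a1 window had CCAAT at -191 to -187 and GC boxes at -114 to -109 and -40 to -35. Among 32851 mouse promoter windows of the same length, TATAAA was found in 12.4%, the GC box in 32.7%, CCAAT in 33.8%, the E-box in 6.02% and the AP-1 motif in 4.46%. No motif was shared by Col13a1 and Col23a1. Both windows were rich in G and C, at 68.8% for Col13a1 and 66% for Col23a1, against 60.4% for Col25a1 and a median of 52.4% over all windows. The RefSeq table had an entry for 8 of the 10 genes.

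Collagen VI made up most of the counts of the 10 genes, 77.3% to 80.5% in the hypercapnia libraries and 77.9% to 80.7% in the room air libraries. Its main chains did not pass the test. Col6a1 (ENSMUSG00000001119, chr10:76708792-76726168, minus strand) stood at 2309, 2358 and 2196 CPM in hypercapnia libraries M4, M5 and M6, against 2605, 2455 and 2430 CPM in room air libraries M1, M2 and M3. The groups did not overlap but lay close together, with a log2 fold change of -0.13 ± 0.09 (SE), a 95% interval of -0.32 to 0.07 and an adjusted p of 0.653 by edgeR.

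Col6a2 (ENSMUSG00000020241, chr10:76595762-76623630, minus strand) lies 85.2 kb from Col6a1 on the same strand. Col6a2 stood at 1966, 1903 and 1923 CPM in the hypercapnia libraries, against 2155, 2000 and 1963 CPM in the room air libraries. The groups overlapped, and edgeR gave a log2 fold change of -0.08 ± 0.09 with a 95% interval of -0.28 to 0.12 and an adjusted p of 0.812.

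Col6a3 (ENSMUSG00000048126, chr1:90765923-90843971, minus strand) encodes the longest of the 3 chains. It stood at 2371, 1971 and 1909 CPM in hypercapnia libraries M4, M5 and M6, against 2923, 2547 and 2657 CPM in room air libraries M1, M2 and M3. The groups did not overlap, with M4 nearest to room air. The means were 2084 ± 251 CPM in hypercapnia and 2709 ± 193 CPM in room air, and edgeR gave a log2 fold change of -0.38 ± 0.11 (SE), a 95% interval of -0.62 to -0.14 and an adjusted p of 0.156, which missed the threshold. The gene passed in one alternative, with no filter on low counts (adjusted p 0.0297).

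The balance of the chains was compared within libraries as ratios of counts per kilobase of transcript. Col6a2 per Col6a1 was 0.884, 0.838 and 0.909 in hypercapnia libraries M4, M5 and M6, against 0.859, 0.846 and 0.838 in room air libraries M1, M2 and M3, values that overlapped (log2 difference 0.048, two-sided exact permutation p = 0.4). Col6a3 per Col6a1 was 0.468, 0.381 and 0.396 in the hypercapnia libraries, against 0.511, 0.473 and 0.498 in the room air libraries. These did not overlap, with a log2 difference of -0.257 and a two-sided exact permutation p of 0.1, the smallest that 3 libraries against 3 can give. Leaving out single libraries moved this difference between -0.347 and -0.198. Counted as a share of all collagen VI reads, Col6a3 took 35.7%, 31.6% and 31.7% in the hypercapnia libraries, against 38.0%, 36.4% and 37.7% in the room air libraries.

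**Figure D3:**
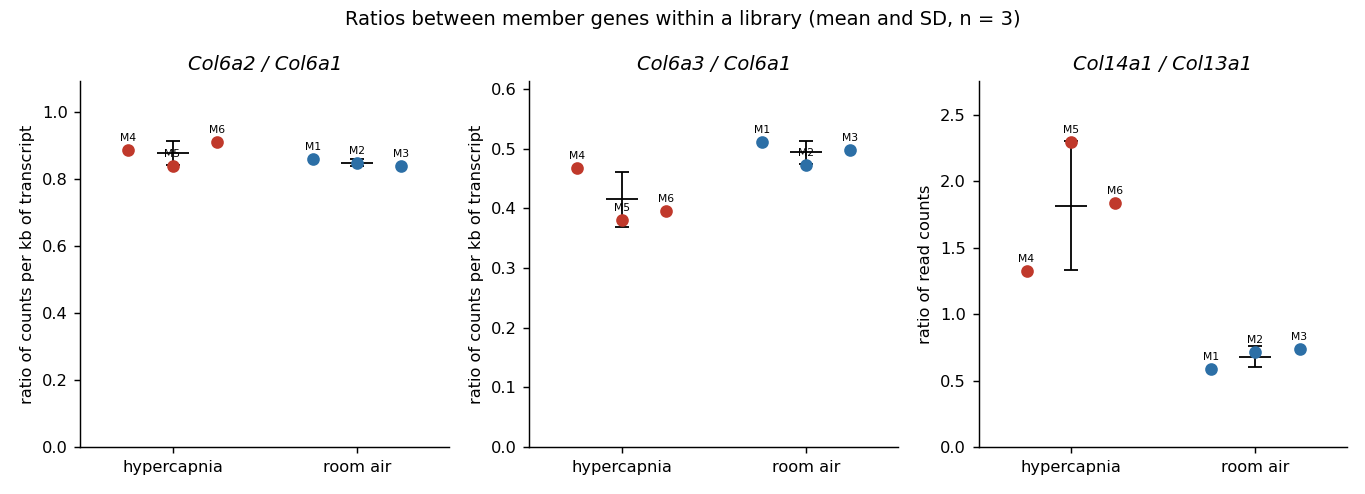
Ratios between genes within each library (vertical axes from 0), with hypercapnia left and room air right. Points are libraries and bars are mean and SD of 3 libraries; the collagen VI ratios are of counts per kilobase of transcript and the Col14a1 to Col13a1 ratio is of read counts. Col6a2 per Col6a1 overlaps between the groups, Col6a3 per Col6a1 is lower in every hypercapnia library, and Col14a1 per Col13a1 is higher in every hypercapnia library.

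Col8a1 (ENSMUSG00000068196, chr16:57624258-57754737, minus strand) encodes a short-chain collagen that forms hexagonal networks, as under vascular endothelium and in the cornea. It belongs by structure to none of the classes named for the other genes. Col8a1 had 115, 78 and 88 counts in hypercapnia libraries M4, M5 and M6, against 198, 72 and 20 counts in room air libraries M1, M2 and M3. The room air libraries enclosed all hypercapnia libraries. edgeR gave a log2 fold change of -0.18 ± 0.62 (SE) with a 95% interval of -1.56 to 1.19 and an adjusted p of 0.951. The sign turned without M1, where the value was 0.99, and with limma-voom, where it was 0.405. M3, the lowest library for Col8a1, was also the lowest in endothelial markers. M1, the highest for Col8a1, had a lower endothelial sum (2458 CPM) than M4 (3904 CPM) or M5 (3126 CPM). With the level of these markers as a covariate the log2 fold change was -1.42 (adjusted p at least 0.123 in every alternative). The part of endothelial cells in the Col8a1 values was not tested.

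The FACIT genes among the 10 had positive log2 fold changes, and none passed. Col12a1 (ENSMUSG00000032332, chr9:79598991-79718831, minus strand), a collagen of mechanically loaded connective tissue, stood at 195.7, 167.2 and 118.9 CPM in hypercapnia libraries M4, M5 and M6, against 130.3, 119.7 and 108.8 CPM in room air libraries M1, M2 and M3. M6 lay among the room air libraries, so the groups overlapped. The log2 fold change was 0.43 ± 0.17 (SE), with a 95% interval of 0.05 to 0.80 and an adjusted p of 0.33 by edgeR. With the endothelial level as a covariate it was 0.18 (adjusted p 0.714), and only the fit without a count filter passed (adjusted p 0.0485).

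Col14a1 (ENSMUSG00000022371, chr15:55307750-55520803, plus strand) encodes a collagen that binds fibril surfaces and helps set fibril width. Col14a1 stood at 471.8, 761.6 and 571.4 CPM in hypercapnia libraries M4, M5 and M6, against 394.2, 457.1 and 399.3 CPM in room air libraries M1, M2 and M3. The groups did not overlap, but M4 lay near the highest room air library and M5 stood above all others. The means were 602 ± 147 CPM in hypercapnia and 417 ± 34.9 CPM in room air, and edgeR gave a log2 fold change of 0.53 ± 0.16 (SE), a 95% interval of 0.17 to 0.89 and an adjusted p of 0.182. DESeq2 (adjusted p 0.0341) and the fit without a count filter (0.00236) called it higher, and without M5 the log2 fold change was 0.32 (adjusted p 0.586).

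Col16a1 (ENSMUSG00000040690, chr4:130047840-130099283, plus strand), a FACIT-like collagen with many short collagenous runs, stood at 253.1, 285.6 and 243.0 CPM in the hypercapnia libraries, against 243.4, 263.6 and 216.2 CPM in the room air libraries. The groups overlapped, and the log2 fold change was 0.11 ± 0.12 with a 95% interval of -0.15 to 0.38 (adjusted p 0.799 by edgeR). With the endothelial level as a covariate it was -0.02.

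Since Col13a1 and Col14a1 are used as markers of different lung fibroblasts, their read counts were also set against each other within each library, as a description with no test. Col14a1 per Col13a1 was 1.32, 2.30 and 1.83 in hypercapnia libraries M4, M5 and M6, against 0.588, 0.712 and 0.735 in room air libraries M1, M2 and M3. The ratio was higher in every hypercapnia library than in any room air library. It says nothing of which gene had the higher level, since the transcripts differ in length. Per kilobase of transcript, Col14a1 was above Col13a1 in M5 (117.9 and 104.9 CPM per kb) and below it in the other 5 libraries. This too depends on the length used. Per kilobase of all annotated exons, the hypercapnia mean of Col14a1 (85.8 CPM) was above that of Col13a1 (72.4 CPM).

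Over the 9 tested genes, 3 log2 fold changes were positive and 6 negative, with a median of -0.126, against a median of 0.00961 over all tested genes. Of all 13005 genes tested, 6697 had positive and 6308 negative log2 fold changes. In 5 of the 9 the hypercapnia and room air libraries did not overlap, and 18% of all tested genes likewise had no overlap. Together the 10 genes took 0.805%, 0.840% and 0.793% of the library counts in M4, M5 and M6 in hypercapnia, against 0.901%, 0.876% and 0.886% in M1, M2 and M3 in room air. This share was 0.812% ± 0.0247 in hypercapnia and 0.888% ± 0.0125 in room air (SD, n = 3 each), and the groups did not overlap (two-sided exact permutation p = 0.1, the smallest possible here). Of the reads in all 44 collagen genes counted, the 10 genes held 27.7%, 25.0% and 24.7% in hypercapnia, against 29.6%, 27.2% and 28.2% in room air.

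The other collagens give the setting for these values. Of 14 further genes of related classes, 7 could be tested and 0 passed, with a median log2 fold change of 0.04. The smallest p among them belonged to Col17a1, the transmembrane collagen of hemidesmosomes, with 35.8 CPM in hypercapnia and 54.6 CPM in room air (-0.61 ± 0.16, adjusted p 0.106). Col8a2, the partner chain of Col8a1, stood at 40.1 CPM in hypercapnia and 32.0 CPM in room air (0.32 ± 0.14, adjusted p 0.369). Col20a1 had a log2 fold change of -0.22 ± 0.34 (adjusted p 0.881) and Col22a1 one of 0.35 ± 0.66 (adjusted p 0.905). Col6a4, Col9a1 and Col19a1 had 0 counts in every library.

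Of 20 fibrillar and basement membrane collagen genes, 18 were tested, 1 rose and 1 fell. Col5a3, a minor chain of fibrillar collagen V, fell to 29.3, 25.5 and 28.8 CPM in the hypercapnia libraries, against 75.3, 88.6 and 77.9 CPM in the room air libraries (log2 fold change -1.53 ± 0.13, adjusted p 0.000642 by edgeR), and stayed called with any library left out. Col27a1, a fibrillar collagen known from cartilage, rose to 137.9, 147.5 and 144.3 CPM in the hypercapnia libraries, against 109.1, 90.0 and 94.8 CPM in the room air libraries (0.55 ± 0.11, adjusted p 0.0468). Its call was lost with RLE size factors (adjusted p 0.0524), with the endothelial covariate (0.107) and whichever library was left out (0.0567 without M1, 0.259 without M2, 0.101 without M3, 0.0796 without M4, 0.21 without M5 and 0.143 without M6).

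**Figure D4:**
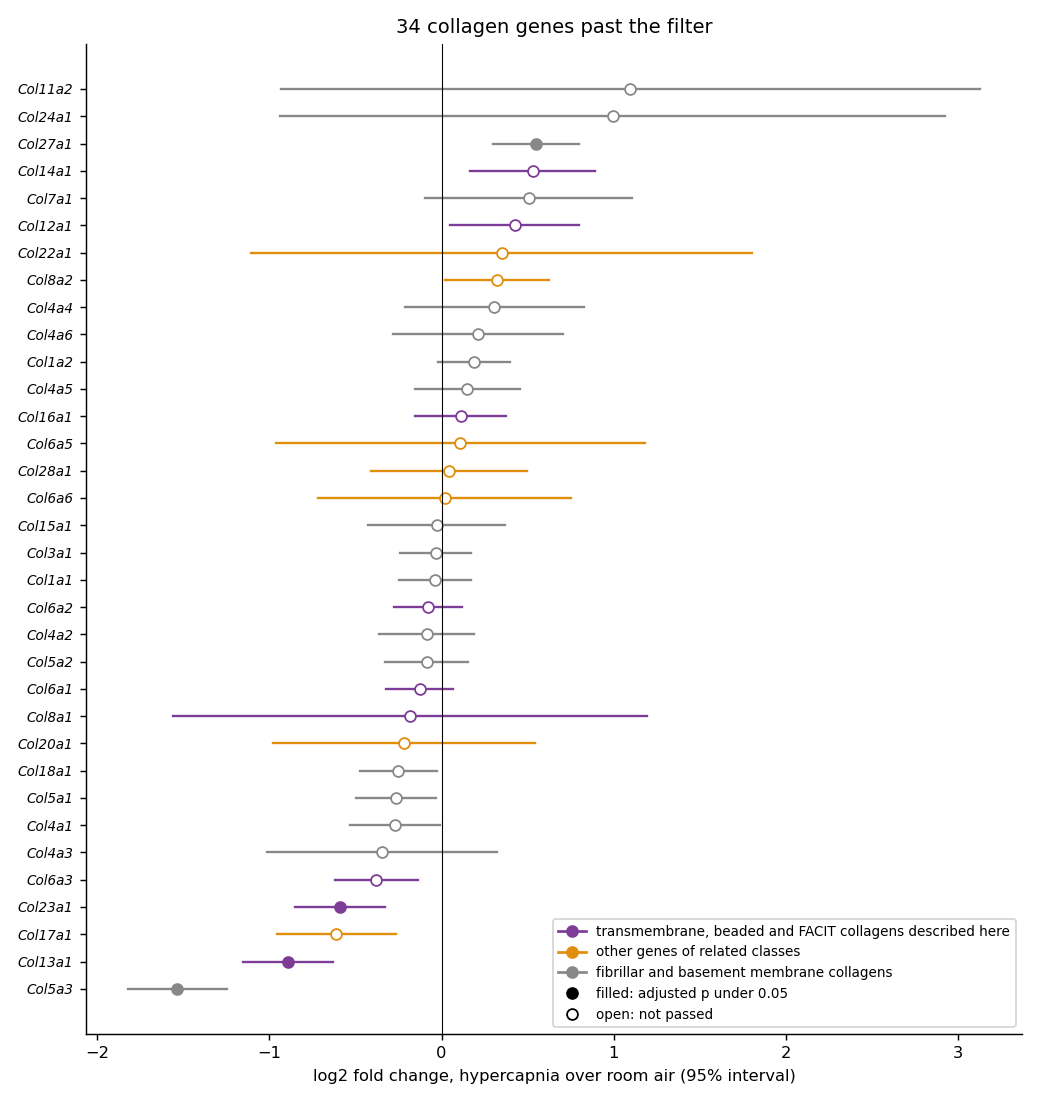
Log2 fold change of hypercapnia over room air with its 95% interval (horizontal axis) for the 34 collagen genes past the filter, ordered by value, with filled points for an adjusted p under 0.05. Col13a1 (-0.89) and Col23a1 (-0.59) lie near the low end with Col5a3 (-1.53), the other gene that fell, while the collagen VI chains Col6a1 and Col6a2 lie close to 0.

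Genes that act with these collagens were counted as lists. Of 12 collagen receptors, which include integrin chains, discoidin domain receptors and the endocytic receptor Mrc2, 11 were tested and 0 passed (8 negative, median -0.11). Mrc2 had the smallest p, with 991 CPM in hypercapnia and 1351 CPM in room air (-0.45 ± 0.11, adjusted p 0.0848), and Itga2, the alpha chain of a collagen-binding integrin, stood at 13.03 CPM in hypercapnia and 5.42 CPM in room air (1.27 ± 0.42, adjusted p 0.22). Of 7 partners at the fibril surface, 6 were tested and 0 passed (5 positive, median 0.22). Tnxb, which encodes the matrix glycoprotein tenascin-X, stood at 2313 CPM in hypercapnia and 1636 CPM in room air (0.50 ± 0.11, adjusted p 0.0682). Fmod, for the fibril-binding proteoglycan fibromodulin, stood at 117 CPM in hypercapnia and 78.4 CPM in room air (0.57 ± 0.17, adjusted p 0.156).

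The proteases that release collagen ectodomains were tested as 5 genes, and 0 passed. Furin, the convertase known to cut collagens XIII and XXIII, stood at 125 CPM in hypercapnia and 169 CPM in room air (-0.43 ± 0.12, adjusted p 0.133). Pcsk5, a related convertase, stood at 147 CPM in hypercapnia and 108 CPM in room air (0.44 ± 0.12, adjusted p 0.137). With DESeq2 the adjusted p was under the threshold for Mrc2 (0.00664), Tnxb (0.00431), Fmod (0.0399) and Furin (0.0418), and for Col17a1 (0.0312) among the related collagens. Tnxb and Mrc2 also passed with limma-voom (adjusted p 0.0344 and 0.04) and with robust dispersion in edgeR (0.0174 and 0.0276). Of the 14 alternatives, 5 called Tnxb, 4 called Mrc2, 3 called Col17a1 and 2 each called Fmod and Furin. Itga2 and Pcsk5 were each called in 1, the fit without a count filter. With the endothelial level as a covariate, Col17a1 was called too (-0.86, adjusted p 0.0285).

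Marker lists of lung cell types moved beside these results. For comparison, 6697 of all 13005 tested genes had positive and 6308 negative log2 fold changes. Of 12 alveolar fibroblast markers other than Col13a1, all had negative log2 fold changes (median -0.41) and 5 fell, among them Gyg, for the glycogen primer glycogenin (-0.95 ± 0.11, adjusted p 0.00375), and the lipase gene Lpl (-0.81 ± 0.13, adjusted p 0.0181). The other calls were Fgfr4, a fibroblast growth factor receptor (-0.63 ± 0.10, adjusted p 0.0181), Limch1, an actin-associated protein (-0.57 ± 0.11, adjusted p 0.0368), and Npnt, an integrin ligand of basement membranes (-0.44 ± 0.09, adjusted p 0.0474). The summed level of the list was 17190 to 19390 CPM in hypercapnia and 22600 to 22940 CPM in room air. The other 7 genes did not pass. Among them Inmt stood at 7480 CPM in hypercapnia and 8225 CPM in room air (-0.14 ± 0.11, adjusted p 0.72). Ces1d stood at 939 CPM in hypercapnia and 973 CPM in room air (-0.05 ± 0.12, adjusted p 0.927). Both had overlapping groups, whereas 9 of the 12 genes had no overlap, as did 18% of all tested genes. Gyg stayed called with any library left out, and Lpl was lost without M2 (adjusted p 0.0574), M5 (0.0795) or M6 (0.0902). Fgfr4 was lost without M2 (0.126), M5 (0.124) or M6 (0.0664). Of the fits without a library, Limch1 was called only in that without M4 (0.0199), with adjusted p of 0.0592 to 0.186 in the others. Npnt was likewise called only in that without M4 (0.0251, against 0.054 to 0.26 in the others), and it was lost with RLE size factors (0.0521) and with the stricter filter (0.053). With 1 library left out, the list kept between 1 call (without M2, M5 or M6) and 5 calls (without M4). The part of these cells in the lower Col13a1 and Col23a1 was not tested.

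Of 11 adventitial fibroblast markers other than Col14a1, all had positive log2 fold changes (median 0.53) and 1 rose, Il33, for an alarmin cytokine (1.07 ± 0.21, adjusted p 0.042). The smallest values were those of Clec3b (0.10 ± 0.15, adjusted p 0.857) and Adh7 (0.09 ± 0.19, adjusted p 0.916). In 5 of the 11 the hypercapnia and room air libraries did not overlap, against 18% of all tested genes. Il33 was kept without M4 (adjusted p 0.0262) and lost without M1 (0.0927), M2 (0.0588), M3 (0.0655), M5 (0.195) or M6 (0.143), and lost with the endothelial level as a covariate (0.88, adjusted p 0.114). The summed level of the list was 2151, 2836 and 2771 CPM in hypercapnia libraries M4, M5 and M6, against 1817, 2220 and 2035 CPM in room air libraries M1, M2 and M3. The groups overlapped, and M5 was the highest library here and for Col14a1. The part of these cells in the Col14a1 values was not tested.

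Of the 18 endothelial markers, all had positive log2 fold changes (median 0.88) and 0 passed, with summed levels of 2447 to 3904 CPM in hypercapnia and 692 to 2458 CPM in room air. Col13a1 and Col23a1 stayed called when the mean log2 CPM of these markers was a covariate (adjusted p 0.0011 for Col13a1 and 0.0378 for Col23a1). That covariate was 6.574 to 7.231 in the hypercapnia libraries and 4.842 to 6.538 in the room air libraries. It did not overlap between the groups, so the fit cannot fully separate it from hypercapnia. The part of endothelial cells in these values was not tested. Epithelial markers summed to 395 to 513 CPM in hypercapnia and 411 to 695 CPM in room air with 0 of 11 called, and pericyte markers to 470 to 517 CPM in hypercapnia and 355 to 404 CPM in room air with 0 of 4 tested genes called. All 4 tested pericyte markers had positive log2 fold changes (median 0.50). With the endothelial covariate 1 epithelial and 1 pericyte marker were called. Pecam1, which encodes the endothelial adhesion molecule CD31, stood at 390.6, 306.8 and 227.2 CPM in hypercapnia libraries M4, M5 and M6, against 251.7, 197.2 and 56.7 CPM in room air libraries M1, M2 and M3 (log2 fold change 0.87, adjusted p 0.437).

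Of 6 tested myofibroblast and smooth muscle markers, 2 log2 fold changes were positive and 4 negative (median -0.23), from -0.95 for the smooth muscle myosin Myh11 (adjusted p 0.235). Of these markers 1 rose, Aspn, for the matrix proteoglycan asporin (0.97 ± 0.19, adjusted p 0.041), and with 1 library left out the list had 1 call without M1 and 0 without any other library or with the endothelial covariate. Of 4 tested mesothelial markers, 3 log2 fold changes were positive and 1 negative (median 0.77), among them Msln, for mesothelin, at 0.65 (adjusted p 0.728) and Upk3b at 0.90 (adjusted p 0.644). The negative one, Upk1b, for a uroplakin, fell (-0.73 ± 0.13, adjusted p 0.0317), and the list had 0 calls whichever library was left out and with the endothelial covariate. Upk1b stood far above the others, at 137 CPM in hypercapnia and 226 CPM in room air. Msln stood at 7.42 CPM in hypercapnia and 4.69 CPM in room air, and Upk3b at 13.5 and 7.20 CPM. Which cells the Upk1b counts came from was not tested. Of 8 leukocyte markers 2 could be tested, Lyz2 (0.36, adjusted p 0.856) and Cd68 (0.03, adjusted p 0.992), 0 passed, and Cd3e and Marco had 0 counts in every library.

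**Figure D5:**
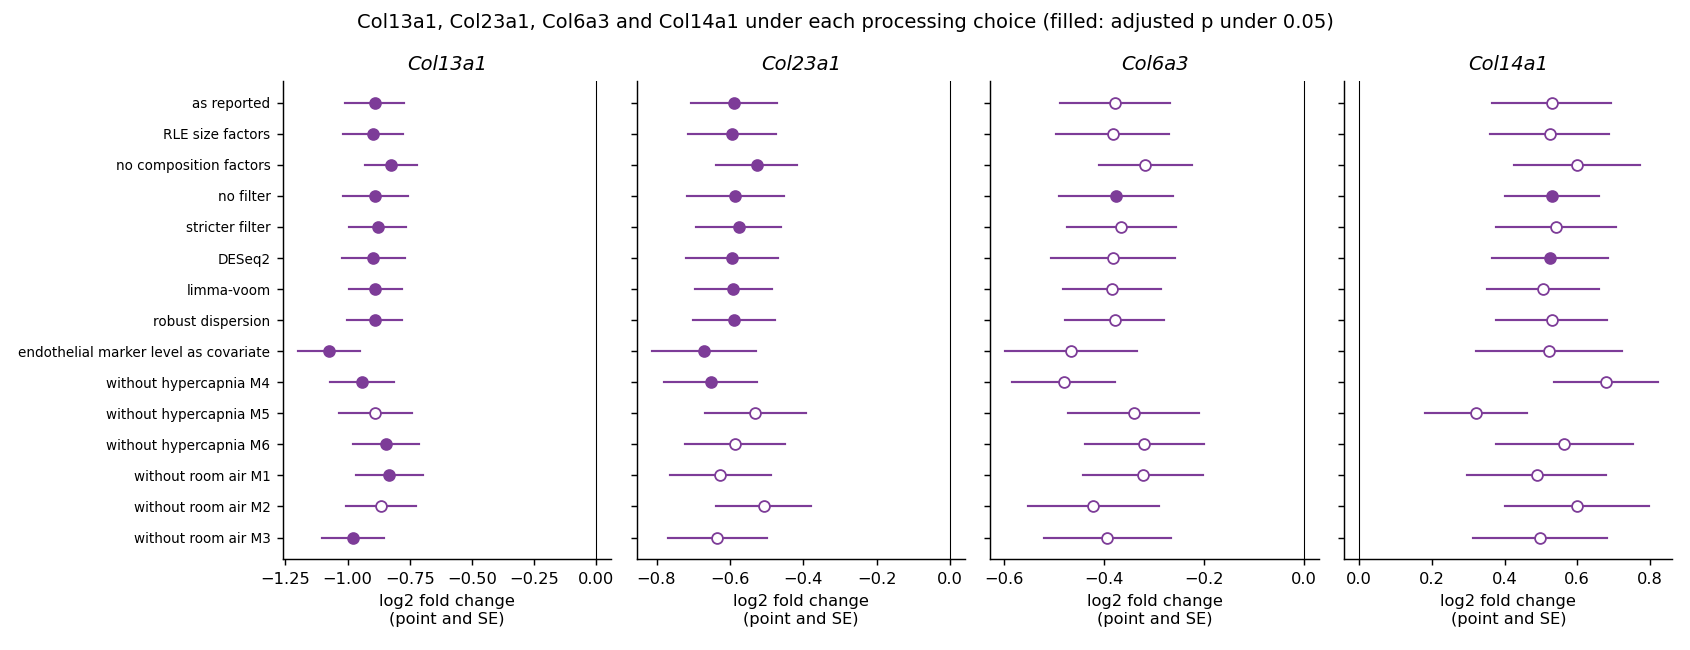
Log2 fold change with its SE (horizontal axes) of Col13a1, Col23a1, Col6a3 and Col14a1 as reported and under each of 14 alternatives, with filled points for an adjusted p under 0.05. Every Col13a1 estimate lies between -1.08 and -0.83 and every Col23a1 estimate between -0.67 and -0.51, while Col14a1 ranges from 0.32 without M5 to 0.68 without M4.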

How the data were processed

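RNA-seq was analysed from raw read counts per gene, which the authors deposited unnormalized. The tools were TopHat2 2.1.0, HTSeq, FastQC and bcl2fastq 2.17.1.14 on mm10, per the submitters' processing notes. For the annotation release, strand setting and read filters nothing is given in the sources used here. No exon of the 10 genes overlaps another gene model, while Pdgfra shares 6.5% and Furin 1.29% of exon bases with another model. Some genes of the lists share more, among them Itgam (68.7%), Tagln (67.9%), Itga10 (33.5%), Ramp2 (33.4%) and Ctsl (26.8%). Each column was assigned by its name to a group and to no single sample. Symbols for 42462 IDs came from GENCODE M21.

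edgeR 4.0.16 (R 4.3.3) was run on all 6 libraries with TMM factors, its filter at a minimum count of 10 (13005 genes kept) and the two-sided quasi-likelihood F-test with 4 residual degrees of freedom and Benjamini-Hochberg adjustment over all tested genes. A gene rose or fell, or was called, where its adjusted p was under 0.05. The SE is the log2 fold change divided by the square root of F. The script was tested on simulated data. No pair of libraries agreed within counting noise (chi-square per degree of freedom at least 12.6). Alternatives used limma 3.58.1 and DESeq2 1.42.0.

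The 10 genes and the lists were chosen with earlier results of these data known. The text names all 10, as sort checks Col1a1, Epcam, Pdgfra, Pecam1 and Ptprc, the 3 genes nearest to each called one, and every called gene of the collagen, receptor, partner and protease lists or else the 2 with the smallest p. Other genes of the lists, and genes at 0, were added after their values were seen. Ratios per kilobase of transcript were added after seeing the data.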

Additional observations from a re-analysis of the deposited data

How the results depend on the processing

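Over 14 alternatives, Col13a1 and Col23a1 kept their direction and lost their calls only where single libraries were left out. The number of genes called was 159, against 756 without a count filter, 443 with DESeq2 and 255 with robust dispersion, and 24 to 148 with 1 library left out, lowest without M2. Without composition factors 172 genes were called, 56.4% of them higher, against 42.8%. Of the 10 genes, 2 were called, 5 without a count filter and 0 to 2 with 1 library left out. Col8a1 turned to 0.405 with limma-voom and ran from -0.677 to 0.99 with 1 library left out, and Col16a1 turned to -0.0198 with the endothelial covariate; the cause was not tested. With 3 libraries per group, small changes are estimated with wide intervals. No paired analysis was possible because the columns name only the group and no pairing of mice between groups is given in the sources used here.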
